A study of Mus musculus with 35 samples.

Results

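Liver transcripts of 5 mice that had inhaled 20 ppm styrene were compared with those of 5 mice that had inhaled 10 ppm. These 10 arrays, 1 per mouse, were taken by their labelled concentration from a series of 35, in which 7 groups of 5 mice received air or styrene at 1, 5, 10, 20, 40 or 120 ppm. All mice were adult male wild-type C57Bl/6, an inbred laboratory strain. Each mouse was exposed once for 6 hours, alone in a wire-mesh cage, and was killed under pentobarbital the next morning. The 10 ppm mice had breathed styrene as well, so the contrast is between 2 exposed groups and not between exposed and unexposed mice. Animal numbers ran from 26 to 30 at 10 ppm and from 33 to 40 at 20 ppm, so the order of the animals and the concentration cannot be told apart. No label says whether the groups were exposed on the same day. The comparison asks which transcripts differed across the step from 10 to 20 ppm, the lowest at which more than 2 probe sets were called.

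Styrene is the monomer of polystyrene. Liver cells oxidise it, mainly through cytochrome P450 enzymes, to styrene oxide, which is then hydrolysed or joined to glutathione. The liver also carries a circadian clock, in which CLOCK and BMAL1 drive the Per and Cry genes through E-box sequences and are inhibited by the PER and CRY proteins. PPARA, a fatty acid sensor, drives genes of fatty acid oxidation, and heat shock factors drive genes of protein-folding chaperones. These programs respond to feeding, time of day, stress and foreign chemicals, so one sample of liver reads several of them together.

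Values are given on a log2 scale, on which a difference of 1 is a change in level by a factor of 2. A transcript was called where limma's test over all 35 arrays, which used the spread within all 7 groups, gave a Benjamini-Hochberg adjusted p under 0.05. The 10 arrays had nearly the same median, 3.53 at both concentrations, and correlated with one another between 0.980 and 0.994. The 13 hepatocyte markers measured, such as Alb and Apoa1, averaged 13.01 at 10 ppm and 12.98 at 20 ppm, among the highest levels on the arrays, whose values ended at 14.23. Lung, exocrine pancreas and skeletal muscle lists averaged between 3.28 and 3.84, near the array median, and none of their members was called. Bulk liver was measured, so fewer cells of a type and less RNA per cell cannot be told apart.

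At 20 ppm 157 of 45037 probe sets differed from 10 ppm, which is 0.349% of those tested, 92 higher and 65 lower. Of these, 87 differed by at least 1.5-fold. At an unadjusted p under 0.05 in limma's test, 2273 probe sets were higher (5.05%) and 2200 lower (4.88%), 4473 in all. The test was two-sided, so the share that chance gives at that threshold is divided between both directions. Counted as genes, each represented by its brightest probe set, 81 of 17097 passed (0.474%), 50 higher (0.292%) and 31 lower (0.181%). The median change was 0.67 among the 50 genes that rose and -0.51 among the 31 that fell, against 0.01 over all genes. The 5 mice of 20 ppm lay entirely above the 5 of 10 ppm in 21 of the 50, and entirely below them in 20 of the 31. Over all genes 0.854% lay entirely above and 0.667% entirely below. The change was above 0 in 8846 of the 17097 genes and below 0 in 8251.

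The lower steps gave few calls. With the same test 2 probe sets were called at 1 ppm against air, 0 at 5 against 1 ppm and 0 at 10 against 5 ppm, where 2163 and 1882 had an unadjusted p under 0.05. At 40 against 20 ppm 168 were called and at 120 against 40 ppm 11. The difference between the step from 10 to 20 ppm and the step from 1 to 5 ppm, which share no array, was tested as well. By limma's test 0 probe sets passed for it, with 3980 at an unadjusted p under 0.05, so a larger change at the higher step was not shown for any single probe set.

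The calls rested on few mice. Without mouse 2 or mouse 4 of 20 ppm 0 probe sets were called, and without mouse 3 of 20 ppm 521 were. Leaving out mouse 1, 3, 4 or 5 of 10 ppm left 14, 13, 39 and 4 calls, whereas leaving out mouse 2 gave 470. With mouse 5 of 10 ppm left out, 0 genes were called. Without mouse 1 of 20 ppm there were 235 calls and without mouse 5 there were 50. All 81 genes kept the sign of their change in each of these fits, which their choice from the same arrays made likely. A fit of the 10 compared arrays alone, with their own spread, called 0 probe sets. It had 3557 at an unadjusted p under 0.05, against 4473 in the main fit.

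**Figure D1:**
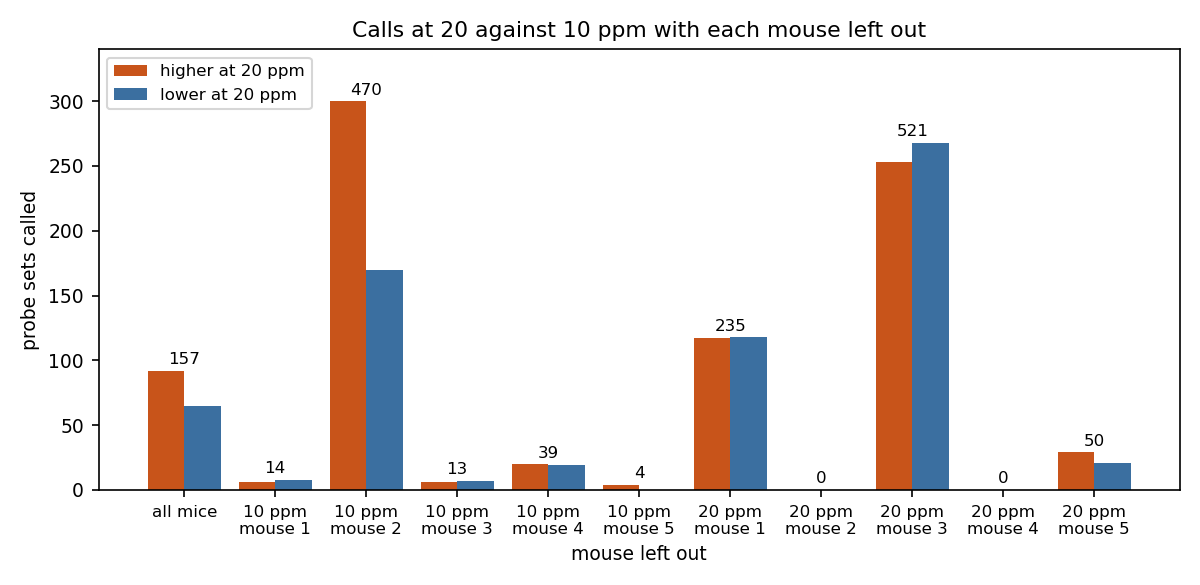
Number of probe sets called higher (orange bars) and lower (blue bars) at 20 against 10 ppm with all 10 mice and with each mouse left out, with the total above each pair. The total is 157 with all mice, 0 without mouse 2 or mouse 4 of 20 ppm, and 521 without mouse 3 of 20 ppm.

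The 5 mice of 20 ppm were not alike. To place each mouse, the 110 genes at least 2-fold higher at 40 ppm than in air and the 47 at least 2-fold lower were averaged in every array, relative to the 1 and 5 ppm mice. These genes were called by limma's test of 40 ppm against air, after results were known. The 10 compared arrays did not enter those group means but contributed to the pooled spread. The averages are a description with no test. On the 110 genes the 10 ppm mice stood at -0.12, 0.24, 0.11, 0.10 and 0.11. The 20 ppm mice stood at 0.53, 1.37, 0.26, 1.08 and 0.91, and the 120 ppm mice between 1.03 and 1.503. Mice 2, 4 and 5 of 20 ppm thus lay at or near the level of 120 ppm, mouse 1 lay between the levels, and mouse 3 lay just above the highest 10 ppm mouse.

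The genes that were lower at 40 ppm gave the same order. On the 47 genes the 10 ppm mice stood at 0.10, -0.37, 0.02, -0.17 and -0.09, and the 20 ppm mice at -0.45, -1.35, -0.40, -1.32 and -1.18. The 120 ppm mice lay between -1.39 and -1.11, which includes mice 2, 4 and 5 of 20 ppm and neither mouse 1 nor mouse 3. Among the 50 genes that rose, mouse 2 was the highest 20 ppm mouse in 38, and mouse 3 the lowest in 25 and mouse 1 in 18. Mouse 2 of 10 ppm was the highest of its group in 34 of the same 50.

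**Figure D2:**
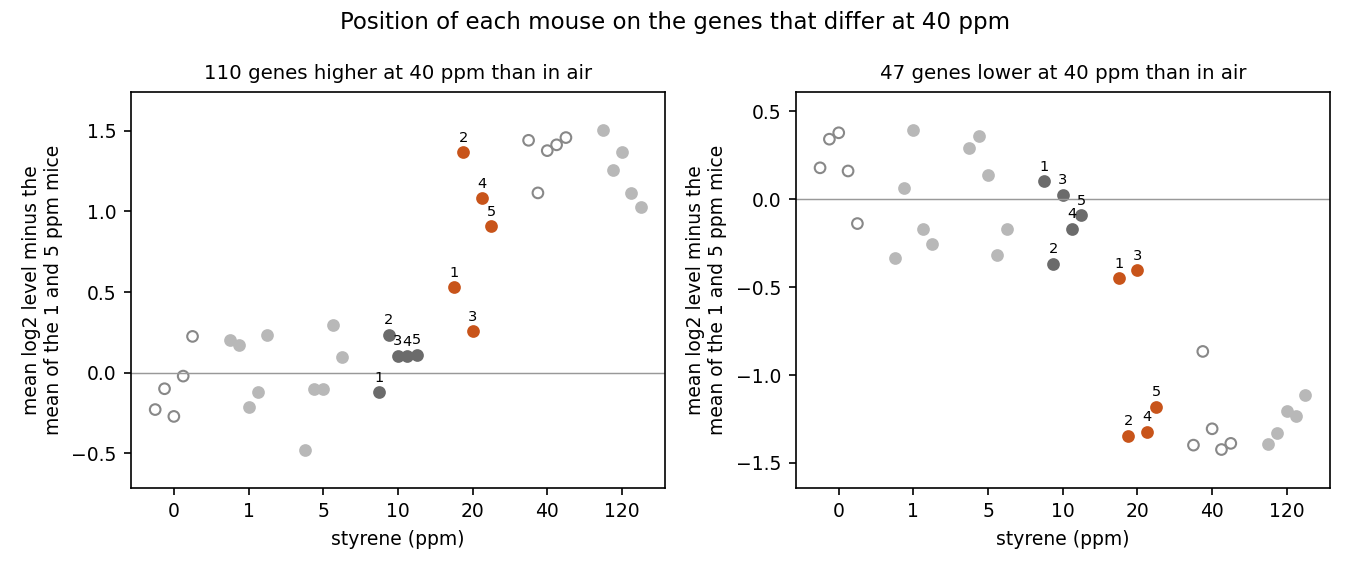
Mean log2 level of 110 genes higher (left) and 47 genes lower (right) at 40 ppm than in air, for each of the 35 mice, minus the mean of the 1 and 5 ppm mice. Open circles are the air and 40 ppm mice, whose means were compared to choose the genes, and numbers mark the mice of 10 and 20 ppm. Mice 2, 4 and 5 of 20 ppm lie apart from mice 1 and 3.

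An indicator of RNA integrity moved with the same mice. The actin transcript's 3' probe sets exceeded its 5' ones by 0.65, 0.60, 0.52, 0.54 and 0.59 in the 10 ppm mice. They did so by 0.61, 0.80, 0.61, 0.74 and 0.85 in the 20 ppm mice, so mice 2, 4 and 5 lay above every 10 ppm mouse and mice 1 and 3 did not. The mean excess was 0.581 ± 0.0528 at 10 ppm and 0.724 ± 0.109 at 20 ppm (SD, n = 5 each; two-sided exact permutation p = 0.0397, adjusted p = 0.367 over 21 values per array). It averaged 0.478 in air, 0.706 at 40 ppm and 0.717 at 120 ppm. The corresponding GAPDH difference was 0.120 ± 0.0204 at 10 ppm and 0.0299 ± 0.242 at 20 ppm, with mouse 5 of 20 ppm at -0.40 and the others between 0.13 and 0.17. With the actin difference as a covariate 0 probe sets were called. At an unadjusted p under 0.05 there were 2440, against 4473 without the covariate and 2163 at 5 against 1 ppm, where 0 were called. All 81 genes, chosen from the same arrays, kept their sign in that fit. Of the 40 named genes that were called, 38 had a smaller change in it, and in 5 of them the change was smaller by over 1.5 times, at -0.23 for Sec61b, 0.49 for Bnip3, 0.77 for Cyp4a31, 0.62 for D630004K10Rik and -0.48 for Tubb5. Its part in the results below was not tested further.

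Among transcripts of protein-folding chaperones, Hspb1 and Stip1 fell at 20 ppm. The 17 heat shock chaperones measured were mostly cytosolic but included the mitochondrial Hspe1. Of these 17 the 2 named fell, against 0.181% of all genes, 0 rose, and 15 lay below 0. The median of the list was -0.57, and 8 members were lower at an unadjusted p under 0.05, a level reached in the downward direction by 5.66% of all genes. Hspb1 encodes a small heat shock protein that holds unfolding proteins in solution. Its level was 9.73, 9.67, 9.21, 9.32 and 10.33 at 10 ppm, against 8.37, 6.77, 8.42, 7.51 and 8.94 at 20 ppm. All mice of 20 ppm lay below all of 10 ppm, and mice 2 and 4 were the lowest. The change was -1.65 (SE 0.27), a fall by 3.13-fold with an adjusted p of 0.0134 in limma's test, the smallest of the comparison. Among the other 3 probe sets of Hspb1, whose changes ran from -1.57 to -0.40, 1 was called, and the mean of all its probe sets changed by -1.02.

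Stip1 encodes a co-chaperone that links HSP70 to HSP90. It fell from 8.73 ± 0.17 to 8.16 ± 0.25 (SD, n = 5 each), with a lowest 10 ppm mouse at 8.60 and a highest 20 ppm mouse at 8.43. The inducible HSP70 gene Hspa1b had the largest difference in the list, -1.83 (SE 0.62), and was not called (adjusted p = 0.216, limma). Its level ran from 8.48 to 11.78 at 10 ppm and from 6.95 to 10.57 at 20 ppm, so the groups overlapped widely. Hsph1, a nucleotide exchange factor for HSP70, differed by -0.98 and was not called either. The constitutive Hspa8 was at 12.2 at 10 ppm and its difference rounded to 0.

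Chaperones and translocation factors of the endoplasmic reticulum gave 2 called members of 23, both lower, against 0 higher, with a median of -0.28. Over all genes 0.181% were called lower. Serpinh1 encodes HSP47, the chaperone of collagen. Its level was 7.43, 6.86, 7.22, 7.32 and 7.77 at 10 ppm, against 6.35, 5.41, 6.48, 5.59 and 6.39 at 20 ppm, without overlap. It fell by 1.28 (SE 0.23), or 2.42-fold, and its second probe set, with a change of -1.15, was called as well. Sec61b, a subunit of the channel through which new proteins enter the reticulum, fell from 10.77 ± 0.06 to 10.37 ± 0.23, also without overlap. Hspa5, the main chaperone of this compartment, differed by -0.27 and Ddit3, a transcription factor of the stress response, by -0.08, and neither was called.

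Tubulins, the subunits of microtubules, gave 2 called members of 10, both lower, and all 10 lay below 0 with a median of -0.39. Over all genes 0.181% were called lower and 8251 of 17097 lay below 0. Tuba1a was at 7.43, 7.05, 7.19, 7.15 and 7.46 at 10 ppm and at 6.71, 5.39, 6.77, 5.55 and 6.68 at 20 ppm. Mice 2 and 4 of 20 ppm were more than 1 log2 unit below the other three mice of their group, and no 20 ppm mouse reached the 10 ppm range. Tubb5 fell by 0.73 (SE 0.15), again without overlap, and its second probe set differed by -0.58 and was not called. Tuba1b, at -0.82, and Tubb2a, at -1.05, were not called.

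The cold-inducible RNA-binding protein gene Cirbp rose 2.96-fold. Its level was 4.29, 4.65, 5.42, 5.00 and 4.39 at 10 ppm, against 5.57, 7.21, 6.27, 6.20 and 6.32 at 20 ppm. No mouse of 20 ppm lay within the range of 10 ppm, and the change was 1.57 (SE 0.27, adjusted p = 0.0140 in limma's test). The other three members of its list were not called, among them Rbm3, the second well known cold-inducible gene, at 0.16. Over all genes 0.292% were called higher.

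**Figure D3:**
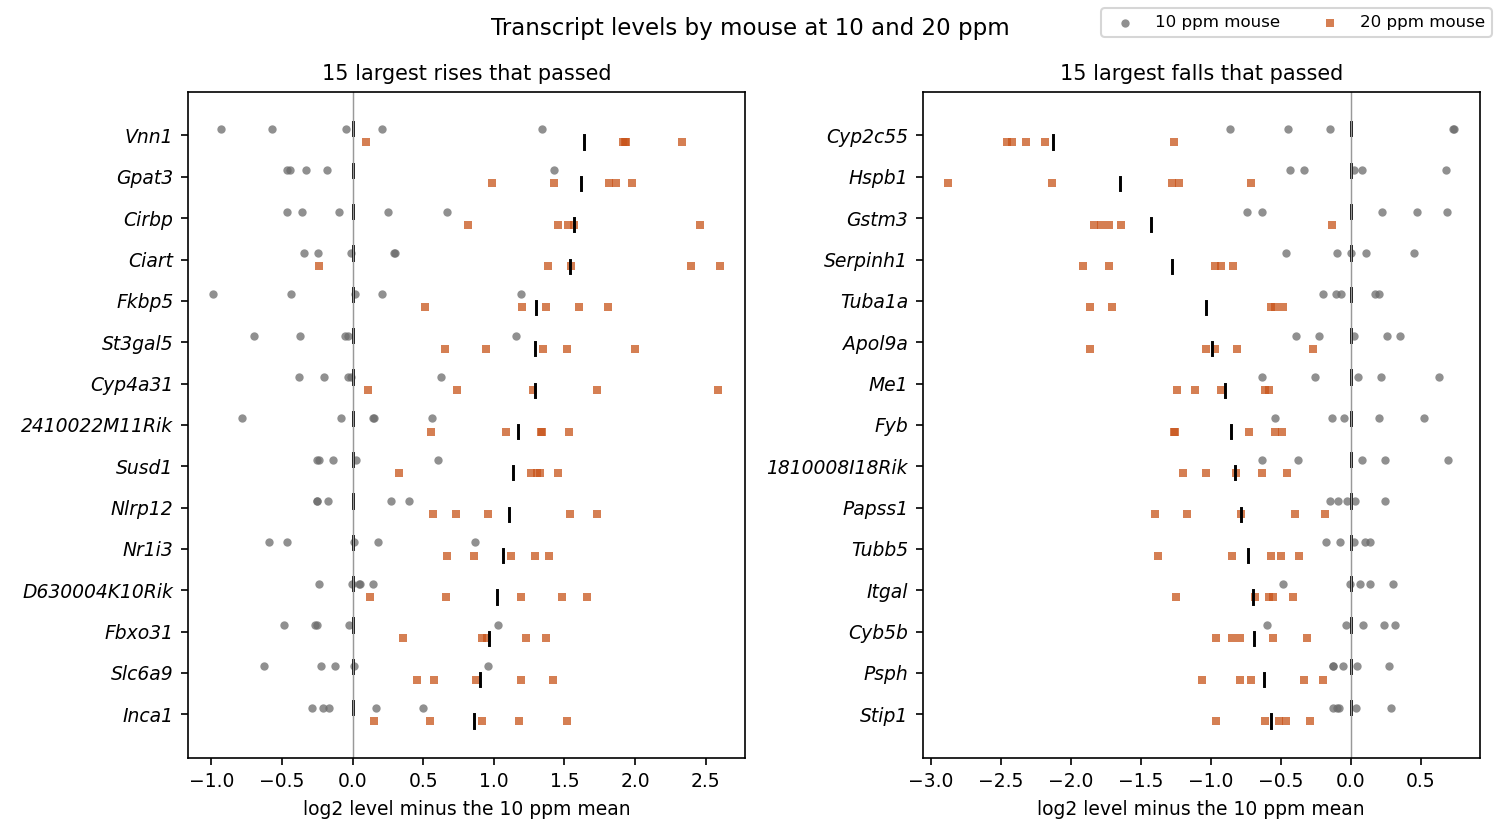
Log2 level of each mouse minus the 10 ppm mean, for the 15 largest rises and the 15 largest falls among called genes; circles are the 5 mice of 10 ppm, squares the 5 of 20 ppm and black bars the group means. The largest rise is Vnn1 at 1.64 and the largest fall Cyp2c55 at -2.13, and in several rows one 20 ppm mouse lies among the 10 ppm mice.

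Some genes of fatty acid oxidation rose at 20 ppm. Of 23 PPARA targets and oxidation genes 4 rose (Vnn1, Slc25a20, Cpt1a and Cyp4a31), against 0.292% of all genes, and 0 fell. The median was 0.38, with 20 members above 0 and 3 below. A further 10 were higher at an unadjusted p under 0.05, which makes 14 in all against 6.39% of all genes in that direction. Vnn1 encodes pantetheinase, which recycles the vitamin part of coenzyme A. Its level was 7.55, 8.95, 6.67, 7.03 and 7.81 at 10 ppm, against 9.54, 9.94, 7.70, 9.53 and 9.51 at 20 ppm. It rose by 1.64 (SE 0.34), or 3.12-fold, yet mouse 3 of 20 ppm lay among the 10 ppm mice and mouse 2 of 10 ppm lay near the 20 ppm mice.

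Cpt1a, which encodes the enzyme that commits fatty acids to mitochondrial oxidation, rose from 10.53 ± 0.37 to 11.24 ± 0.36 (SD, n = 5 each). Slc25a20, the carrier that takes acylcarnitines into mitochondria, rose by 0.55 (SE 0.12), and its second probe set was called with a change of 0.64. Cyp4a31, a fatty acid hydroxylase, rose from 3.59 ± 0.38 to 4.88 ± 0.95. Its level at 10 ppm was close to the array median, where changes can be understated. Acot3, a peroxisomal acyl-CoA thioesterase, had the largest difference of any gene measured, 2.81, and was just outside the call (adjusted p = 0.0552, limma). Fabp1, at -0.09, and Angptl4, at 0.12, showed small differences that were not called.

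Among genes of fatty acid synthesis, Me1 fell. Of 18 measured, 1 fell (Me1), against 0.181% of all genes, 0 rose, and 15 lay below 0 with a median of -0.33. Me1 encodes malic enzyme, a source of NADPH for lipid synthesis, and its level was 9.60, 9.98, 10.45, 10.29 and 10.86 at 10 ppm, against 8.996, 9.12, 9.65, 9.31 and 9.62 at 20 ppm. Mouse 1 of 10 ppm lay just below mice 3 and 5 of 20 ppm, the groups otherwise did not overlap, and the fall was 0.90 (SE 0.18), or 1.86-fold. A second probe set of Me1 differed by -0.72 and was not called. Thrsp, which promotes lipogenesis, differed by -1.15, Scd1, the stearoyl-CoA desaturase, by -0.55 and Fasn, the fatty acid synthase, by -0.35, and none was called. Gpat3, a glycerol-3-phosphate acyltransferase of triglyceride synthesis outside that list, rose by 1.61 (SE 0.32). Its 20 ppm mice were at 5.40, 6.39, 5.84, 6.28 and 6.23, against 4.08, 5.84, 3.95, 4.24 and 3.97 at 10 ppm, where mouse 2 stood apart. Pdhb, a subunit of pyruvate dehydrogenase, fell from 10.67 ± 0.15 to 10.27 ± 0.05 without overlap, with 1 of its 2 probe sets called and a mean change of -0.22 over both.

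Clock transcripts also differed. Of 13 genes in the PER arm and its outputs 2 rose, Ciart and Cry2, and 0 fell. The median was 0.56, with 11 members above 0 and 2 below. Over all genes 0.292% were called higher. Ciart, also called CHRONO, encodes a repressor of CLOCK and BMAL1. Its level was 3.81, 3.82, 3.27, 3.505 and 3.17 at 10 ppm, against 3.28, 6.12, 4.90, 5.06 and 5.91 at 20 ppm. Mouse 1 of 20 ppm lay within the 10 ppm range and the other four mice lay more than 1 log2 unit above it. The change was 1.54 (SE 0.35). The 10 ppm level was at the array median, where a change can be understated, so no fold is given. The repressor gene Cry2 rose from 5.96 ± 0.20 to 6.65 ± 0.31, with a small overlap of the groups.

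The other clock genes were not called, and their mice varied widely. Dbp, an output transcription factor, was at 4.05, 5.49, 3.79, 6.51 and 7.14 at 10 ppm and at 4.28, 7.24, 6.42, 7.92 and 8.77 at 20 ppm. Its difference of 1.53 had an SE of 0.93, and the ranges overlapped, although mice 2, 4 and 5 of 20 ppm lay above every 10 ppm mouse. Per1, Per2 and Per3 differed by 0.47, 0.33 and 0.59 with overlapping groups. In the list of the BMAL1 arm 0 of 6 genes were called, against 0.474% of all genes, and all 6 lay below 0. That list includes Cry1, which is also counted in the PER arm. Arntl, which encodes BMAL1, differed by -0.9998 (SE 0.25, adjusted p = 0.0704, limma) and its partner Npas2 by -1.09 (SE 0.34), with overlapping groups in both.

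The E-box CACGTG, the sequence that CLOCK and BMAL1 bind, was looked for in the 250 bases before the start sites of RefSeq transcripts (build GRCm38.p6). It is the same on both strands and does not overlap itself. Of the 50 genes that rose, 41 had such a window, and 9 of these held the E-box (21.95%). It was found in 4 of 29 windows of genes that fell (13.8%) and in 8.75% of the 13605 genes with a window. The windows of the 5 named genes that rose and hold it are shown 5' to 3' to let the positions be seen, with the E-box in capitals. A match is a description of the sequence and not evidence of binding.
Ciart, chr3:95882229-95882478, minus strand: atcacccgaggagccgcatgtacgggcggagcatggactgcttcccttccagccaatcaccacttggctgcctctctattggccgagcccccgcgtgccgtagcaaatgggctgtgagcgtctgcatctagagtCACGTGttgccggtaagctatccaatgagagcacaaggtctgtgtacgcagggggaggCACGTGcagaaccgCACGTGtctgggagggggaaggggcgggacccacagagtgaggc
Bnip3, chr7:138909507-138909756, minus strand: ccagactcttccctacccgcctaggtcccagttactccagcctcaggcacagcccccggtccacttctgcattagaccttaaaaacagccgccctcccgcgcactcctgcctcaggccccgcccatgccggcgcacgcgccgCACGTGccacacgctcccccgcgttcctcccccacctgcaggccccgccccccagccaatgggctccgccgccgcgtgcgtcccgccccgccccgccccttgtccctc
Susd1, chr4:59438634-59438883, minus strand: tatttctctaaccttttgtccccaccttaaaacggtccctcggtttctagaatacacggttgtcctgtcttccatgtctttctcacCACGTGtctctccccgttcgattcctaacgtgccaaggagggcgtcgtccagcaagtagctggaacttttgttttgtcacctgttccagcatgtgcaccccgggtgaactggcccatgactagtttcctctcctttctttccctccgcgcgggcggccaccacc
Fkbp5, chr17:28486150-28486399, minus strand: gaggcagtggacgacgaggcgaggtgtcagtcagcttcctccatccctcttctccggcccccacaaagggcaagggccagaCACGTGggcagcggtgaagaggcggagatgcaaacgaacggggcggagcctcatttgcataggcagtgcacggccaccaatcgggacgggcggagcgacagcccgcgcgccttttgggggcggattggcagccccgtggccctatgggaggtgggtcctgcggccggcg
Nr1i3, chr1:171213720-171213969, plus strand: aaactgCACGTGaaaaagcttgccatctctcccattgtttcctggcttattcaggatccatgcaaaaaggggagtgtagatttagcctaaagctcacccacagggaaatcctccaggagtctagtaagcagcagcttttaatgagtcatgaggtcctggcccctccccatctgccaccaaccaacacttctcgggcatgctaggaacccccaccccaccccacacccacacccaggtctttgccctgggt
Ciart holds 3 E-boxes, which begin 116, 58 and 44 bases before its start, and the other genes 1 each. The distance was 108 bases in Bnip3, 164 in Susd1, 169 in Fkbp5 and 244 in Nr1i3. The E-box was not found before Cry2 but was found before Tubb5, which fell. The CCAAT box was found in 58.6% of windows of genes that fell, 34.1% of those that rose and 39.6% of all. In the same order, the D-box TTATGTAA was found in 1 of 29, 0 of 41 and 0.706%. The heat shock element was in 0 of 29, 1 of 41 and 0.463%. The STAT site was in 0 of 29, 1 of 41 and 1.22%. The cyclic AMP response element was in 0 of 29, 0 of 41 and 2.52%. The nuclear receptor site AGGTCA was in 10.3%, 4.88% and 14.7%.

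The E-box genes whose windows are shown differed in role. Fkbp5, a glucocorticoid target whose product holds the receptor back, was at 7.09, 9.27, 8.28, 8.09 and 7.64 at 10 ppm and at 8.58, 9.88, 9.27, 9.44 and 9.67 at 20 ppm. It rose by 1.30 (SE 0.29), with mouse 2 of 10 ppm among the 20 ppm mice. A second probe set of Fkbp5 differed by 1.17 and was not called, the last one by -0.07, and the mean of its probe sets changed by 0.80. Of 16 glucocorticoid targets it was the only one called, against 0.292% of all genes called higher. Bnip3, which encodes a mitochondrial protein of mitophagy, rose from 10.72 ± 0.29 to 11.57 ± 0.45. It was the only one called of 16 hypoxia genes, against the same 0.292% of all genes. Susd1, a membrane protein gene of little known function, rose by 1.13 (SE 0.23), with mouse 3 of 20 ppm at 4.86 and the others between 5.79 and 5.99.

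Genes of the response to foreign chemicals differed in both directions. Nr1i3, which encodes CAR, the receptor that induces drug-metabolising enzymes, rose 2.09-fold. Its level was 8.199, 9.53, 8.68, 8.85 and 8.07 at 10 ppm, against 9.52, 10.05, 9.34, 9.96 and 9.79 at 20 ppm, with mouse 2 of 10 ppm inside the higher range. Of 21 CAR and PXR targets 0 rose and 2 fell, Cyp2c55 and Gstm3, against 0.181% of all genes called lower, and the list median was 0.09. At an unadjusted p under 0.05, 5 were higher (Cyp3a13, Sult1d1, Alas1, Cyp2b10 and Cyp2c38) and 3 lower. Over all genes 6.39% were higher and 5.66% lower at that p. Cyp2c55, a cytochrome P450 that oxidises fatty acids, changed by -2.13 (SE 0.48), a 4.37-fold difference and the largest among called genes. It was at 7.12, 7.84, 8.71, 7.54 and 8.73 at 10 ppm and at 5.57, 5.80, 6.72, 5.67 and 5.53 at 20 ppm, without overlap. Cyp2b10, the usual marker of CAR activity, differed by 1.13 (SE 0.53) and was not called, and its 10 ppm mice spread from 4.22 to 6.62. The 10 ppm mean was the lowest of the series, at 5.23. The 20 ppm mean of 6.36 lay near 6.17 in air and 6.35 at 5 ppm and below 6.87 at 1 ppm. Cyp3a11, the marker of PXR activity, differed by -0.01.

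Gstm3, a glutathione transferase, was at 9.49, 9.39, 10.81, 10.60 and 10.35 at 10 ppm and at 8.40, 8.34, 9.99, 8.29 and 8.48 at 20 ppm. It fell by 1.43 (SE 0.32), and mouse 3 of 20 ppm stayed within the 10 ppm range. A second Gstm3 probe set differed by -1.24 and was not called. Members of the Gstm family are alike in sequence, so their probe sets may share signal. Among 28 NRF2 targets Gstm3 and Me1 fell, against 0.181% of all genes, 0 rose, and the median was -0.12. Hmox1, the heme oxygenase gene, differed by 0.88 and Nqo1, a quinone reductase gene, by 0.36, and neither was called.

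Of 18 genes of styrene metabolism measured 0 were called, against 0.474% of all genes, and their median was -0.04. At an unadjusted p under 0.05, 3 were higher and 4 lower. Over all genes 6.39% were higher and 5.66% lower at that p. Cyp2e1, the main styrene-oxidising P450 of the liver, was at 13.35 ± 0.09 and 13.48 ± 0.08 (SD, n = 5 each), a difference of 0.13 (SE 0.05, adjusted p = 0.368, limma). Cyp2f2, better known from the lung, differed by -0.06 and epoxide hydrolase Ephx1, which opens styrene oxide, by -0.15. Cyp1a2 had the smallest p of the list, with a difference of -0.38 (SE 0.10, adjusted p = 0.0982, limma). The transferases Gsta4 and Gstm2 both differed by -0.43. Cyp2e1, Cyp2f2, Mgst1, Gstp1 and Adh1 lay between 13.01 and 13.65 at 10 ppm, near the top of the scale, where an array can understate a difference.

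Acute phase proteins, which the liver secretes in inflammation, gave 1 called member of 23, a rise of Lrg1, against 0.292% of all genes called higher. At an unadjusted p under 0.05, 11 members were higher, against 6.39% of all genes. The list median was 0.30. Lrg1, a secreted glycoprotein, was at 11.74, 12.11, 11.75, 11.70 and 11.81 at 10 ppm and at 12.39, 12.73, 12.41, 12.49 and 12.17 at 20 ppm. The groups did not overlap, though mouse 2 of 10 ppm and mouse 5 of 20 ppm were close, and the rise was 0.61 (SE 0.14). Serpina3n, a protease inhibitor, differed by 0.72 (adjusted p = 0.0617, limma). Lcn2, an iron-siderophore-binding protein, differed by 2.23 and Saa1, serum amyloid A, by 1.37, with overlapping mice, and neither was called. Neutrophil markers, 13 in all, averaged 3.42 and 3.47, near the array median, with 0 called, against 0.474% of all genes.

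Among immune cell transcripts, Fyb, an adaptor of T cells and myeloid cells, fell by 0.86 (SE 0.19), and Itgal, an integrin of leukocytes, by 0.70 (SE 0.16), both with a small overlap of the groups. The mean of the Itgal probe sets changed by -0.42. Of 16 markers of Kupffer cells, the macrophages of the liver, 0 were called, against 0.474% of all genes, and 14 lay below 0. At an unadjusted p under 0.05, 9 of these markers were lower, against 5.66% of all genes. The mean of these markers was 6.67, 6.46, 7.07, 6.72 and 6.79 in the 10 ppm mice and 6.67, 5.94, 6.57, 6.43 and 6.45 in the 20 ppm mice (two-sided exact permutation p = 0.0397, adjusted p = 0.367 over 21 values per array). The group means were 6.74 at 10 ppm and 6.41 at 20 ppm. They were 6.78 in air, 6.65 at 1 ppm, 6.50 at 5 ppm, 6.45 at 40 ppm and 6.33 at 120 ppm, so the 5 ppm mean lay nearer to that of 20 ppm. At 10 ppm Cd5l was at 10.1 and Clec4f at 8.3, whereas Marco at 4.46, Timd4 at 4.38, Spic at 3.73 and Ccr2 at 3.45 lay nearer to or just below the array median of 3.53. T and NK cell markers averaged 3.82 and 3.83. Of 18 interferon-induced genes 0 were called, against 0.474% of all genes, all 18 lay below 0, and the median was -0.25. At an unadjusted p under 0.05, 6 of these 18 were lower, against 5.66% of all genes. Whether fewer immune cells account for the lower Fyb and Itgal was not tested.

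Several of the largest changes belonged to no list. St3gal5, the synthase of the ganglioside GM3, rose by 1.29 (SE 0.28), and both its probe sets were called. Nlrp12, a NOD-like receptor gene, was at 7.69, 8.22, 7.70, 7.77 and 8.34 at 10 ppm and at 8.90, 9.67, 8.51, 9.49 and 8.68 at 20 ppm, a rise of 1.11 (SE 0.23) without overlap. Cd1d1, which presents lipid antigens, rose from 10.73 ± 0.22 to 11.26 ± 0.20, also without overlap. Its second probe set differed by 0.34 and was not called. The glycine transporter gene Slc6a9 rose by 0.90, the F-box protein gene Fbxo31 by 0.96, the cyclin-interacting Inca1 by 0.86 (0.45 as the mean of its probe sets) and the mitochondrial Smim4 by 0.67. The second probe set of Fbxo31 differed by 0.75 and was not called. Among unnamed transcripts, 2410022M11Rik, annotated as a long non-coding RNA, rose by 1.17 and D630004K10Rik by 1.02.

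The remaining falls were mostly smaller. Apol9a, an apolipoprotein L gene, fell by 0.99 (SE 0.19), with mouse 2 of 20 ppm at 8.34 and mouse 3 at 9.93. Lsr, the lipolysis-stimulated lipoprotein receptor, fell from 10.10 ± 0.10 to 9.61 ± 0.20 without overlap. Papss1, which makes the sulfate donor of sulfotransferases, fell by 0.79, the outer mitochondrial cytochrome b5 gene Cyb5b by 0.69 and Psph, the last enzyme of serine synthesis, by 0.62. Psph was the only one called of 18 ATF4 targets, against 0.181% of all genes called lower. The median of that list was 0.05. The long non-coding RNA 1810008I18Rik fell by 0.83. Cdkn1a, the p53 target that encodes p21, differed by -0.18 (SE 0.64) with wide overlap, and 0 of 15 p53 targets were called. Over all genes 0.474% were called, a share at which a list of this size usually holds none.

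**Figure D4:**
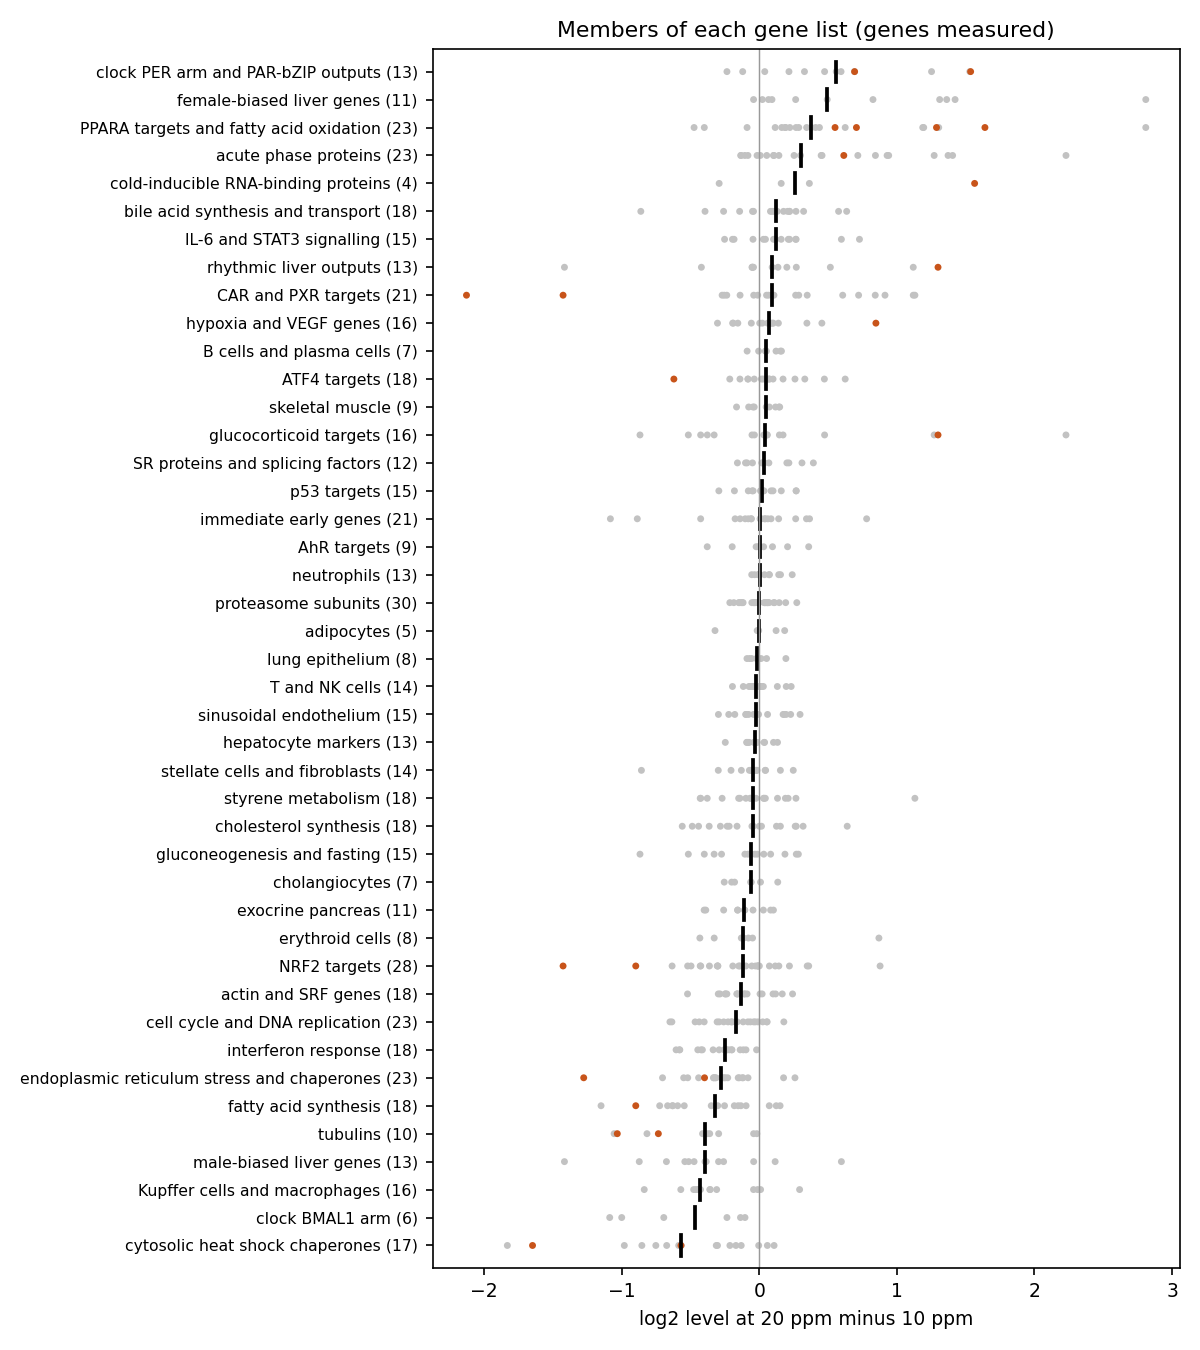
Change in log2 level from 10 to 20 ppm for every measured member of the 43 gene lists, with called members in orange, the others in grey and list medians as black bars. The list labelled cytosolic heat shock chaperones, which includes the mitochondrial Hspe1, has the lowest median, -0.57, and the PER arm of the clock the highest, 0.56.

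Further lists had no called member. Over all genes 0.474% were called, a share at which lists of this size usually hold none. These lists were immediate early genes (21 measured, median 0.01), cholesterol synthesis (18, median -0.05), bile acid synthesis and transport (18, median 0.12), gluconeogenesis and fasting (15, median -0.06), cell cycle genes (23, median -0.17) and proteasome subunits (30, median 0.00). At an unadjusted p under 0.05, 5 cholesterol synthesis and 4 cell cycle genes were lower. At that p 4 bile acid genes were higher and 1 lower, and 1 gluconeogenesis gene was higher and 2 lower. Proteasome subunits had 2 lower, and immediate early genes 0 in either direction. The AhR targets, receptors and enzymes of aromatic pollutants, had 0 called of 9, and Cyp1a1 differed by -0.20 at a level of 3.45. Female-biased liver genes had 0 called of 11 and a median of 0.49, with 10 above 0. At an unadjusted p under 0.05, 6 of them were higher, against 6.39% of all genes. Male-biased genes had 0 called of 13 and a median of -0.39, with 11 below 0. At that p 4 of them were lower, against 5.66% of all genes. All mice were male.

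The called genes were then read at 40 and 120 ppm against air. These arrays did not enter the group means of the contrast, but they contributed to the pooled spread by which its genes were called. The shares of all genes given beside the counts are therefore a background and not the share that unchanged genes would give. At 40 ppm against air 44 of the 50 genes that rose were also called higher, against 8.74% of all genes, and 28 of the 31 that fell were called lower, against 6.24%. Their median changes there were 0.68 and -0.50. At 120 ppm against air 45 of the 50 were called higher, against 11.2% of all genes, and 24 of the 31 lower, against 7.99%. All 81 kept their sign in both. In turn, 10 ppm against the mean of air, 1 and 5 ppm gave 0 calls in limma's test, with 2097 probe sets at an unadjusted p under 0.05, and 20 ppm against the same mean gave 1089 calls.

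The 20 ppm levels of some called genes are set beside those of other groups. These genes were called for a 20 ppm mean far from that of 10 ppm. Among called genes 10 ppm differed from air by a median of -0.07 in the 50 that rose and 0.08 in the 31 that fell. A 20 ppm mean far from that of air was thus partly fixed by the choice of genes. Hspb1 averaged 8.004 ± 0.86 at 20 ppm, against 9.52 in air, 7.62 at 40 ppm and 7.42 at 120 ppm. Serpinh1 averaged 6.04, against 7.14, 5.65 and 5.53. Ciart averaged 5.05 ± 1.12, against 3.47, 6.13 and 6.25, and Nr1i3 9.73, against 8.62, 10.07 and 10.10. Cirbp was at 6.31, against 5.16, 6.56 and 6.52, and Vnn1 at 9.24, against 7.77, 9.38 and 8.96. In each of these genes the 20 ppm mean lay closer to the 40 ppm mean than to that of air. Fyb differed from this pattern, at 4.26 with 20 ppm, against 4.81 in air and 4.79 and 4.67 at the higher concentrations.

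**Figure D5:**
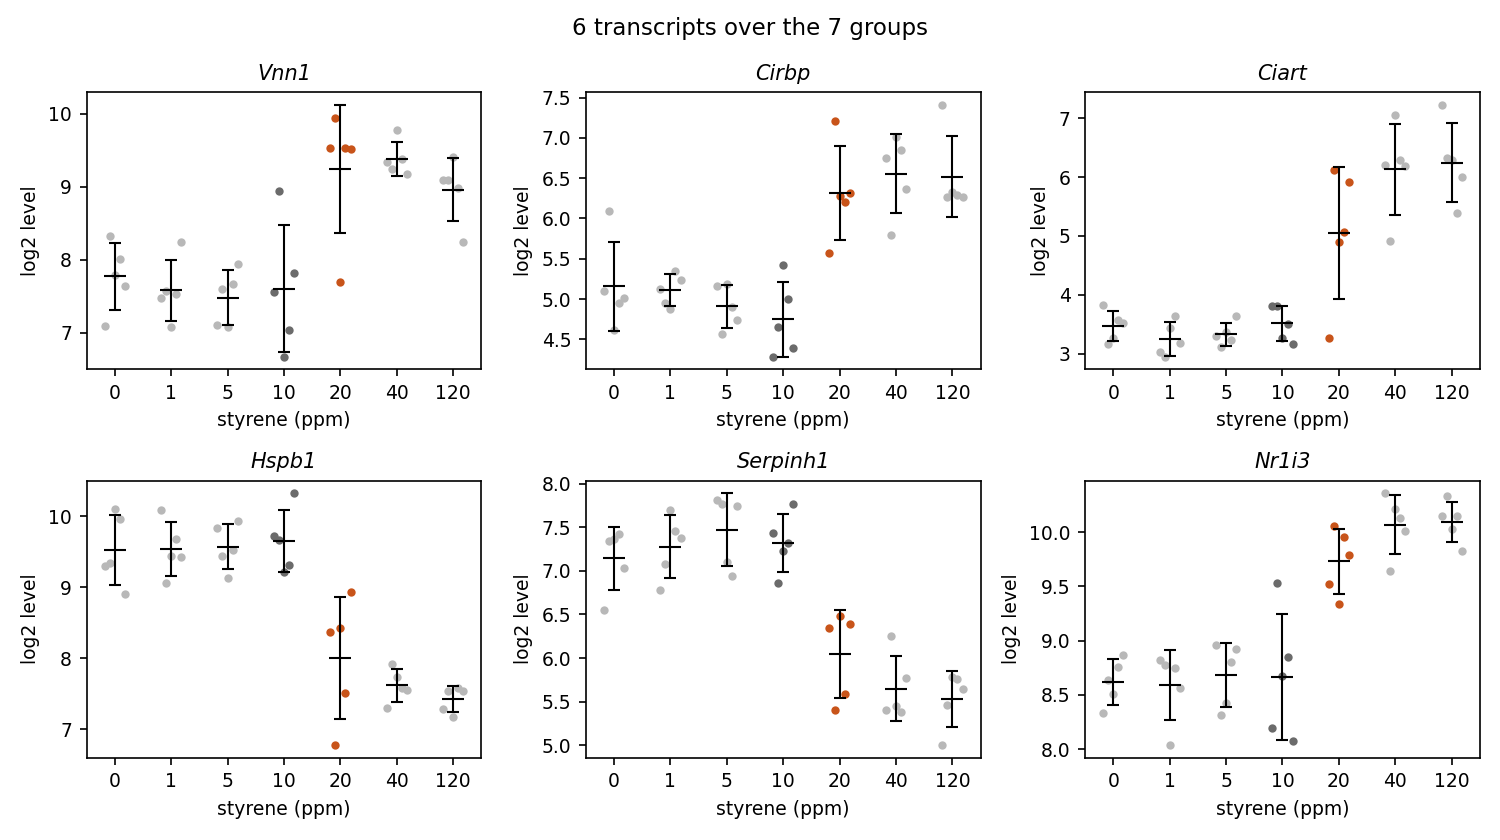
Log2 levels of 6 called genes in all 35 mice by styrene concentration, with 10 ppm in dark grey, 20 ppm in orange and black bars for the group mean ± SD (n = 5). The 20 ppm mice of Ciart, Hspb1 and Vnn1 spread from near the 10 ppm level to the level of 40 and 120 ppm.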

How the data were processed

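The authors deposited 1 log2 value per probe set and array, from Affymetrix 3' IVT arrays of total liver RNA, per the labels' protocols. RMA and Partek are named, per the submitters' processing notes, with no version or order. No source used here gives the log base, and base 2 was assumed because the deposited numbers ran from 1.74 to 14.23. No further normalization was added. Scanner values were not used here, so signal over background was not determined and the number of arrays limits the precision.

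The table held 45141 probe sets, and the tests omitted 104 that are array controls. A platform annotation gave 1 symbol to 28898 of the 45037 tested, several to 551 and none to 15588. A gene was represented by its brightest probe set over the 35 arrays among those that name it alone.

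limma 3.58.1 in R 4.3.3 fitted a mean for each of the 7 groups, with 28 residual and 5.41 prior degrees of freedom, and the contrast 20 minus 10 ppm was adjusted over all probe sets. SE is limma's standard error of a difference. Values per array were compared by two-sided exact permutation tests over 252 divisions, of which the smallest p is 0.00794. The labels call replicates biological, and nothing says that same-numbered mice of different groups belong together. The fit was tested on simulated data.

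The named genes are the 15 largest rises and falls that passed, the 10 smallest p, up to 4 called members of each list, all of styrene metabolism, and further genes of the clock, acute phase, heat shock, drug metabolism and p21. Acot3, Usp2 and the other genes of lists outside that rule were chosen after their values were seen. The 43 lists held 671 genes, of which 590 were measured. The comparison, its members and the lists were chosen with earlier results of these data known. Promoter windows are RefSeq's, matched by symbol for 13605 of 17097 genes. Alternatives changed the centring, normalization, probe sets, arrays, weights, prior, covariates, replicate block and gene summary, and left out each mouse. Leaving out a 5 ppm mouse was added after seeing the data.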

Additional observations from a re-analysis of the deposited data

Results flagged for a closer look

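In 190 sets of 5 mice (10 or 20 ppm) the highest or lowest value was checked for standing apart from the rest of its group by Dixon's criterion, which chance meets in about 1 group of 20, and 10 did. 4 were at 10 ppm and 6 at 20 ppm. Mouse 3 of 20 ppm stood apart in 5 genes, on the side of the 10 ppm mice in each. It was the lowest for Vnn1 (7.70, the nearest mouse at 9.51), for Susd1 (4.86, nearest 5.79) and for Per2 (3.75, nearest 5.19). It was the highest for Gstm3 (9.99, nearest 8.48) and for Cyp2c55 (6.72, nearest 5.80). Mouse 2 of 10 ppm was the highest for Gpat3 (5.84, nearest 4.24) and for Lrg1 (12.1, nearest 11.8), on the side of the 20 ppm mice. Mouse 1 of 10 ppm was the lowest for Gstm1 (12.0, nearest 12.3) and for Lsr (9.93, nearest 10.1). Mouse 5 of 20 ppm had the lowest GAPDH value of 3' minus 5' probe sets, -0.40, with the nearest mouse at 0.13. Its part in any result was not tested.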

How the results depend on the processing

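The direction of all 81 called genes that were tested was the same in every setting run, whereas the count of calls was not. The genes were chosen for a large difference in the same arrays, so a kept direction was likely beforehand and is no measure of stability. Against 157 probe sets and 81 genes, only brighter probe sets gave 279 probe sets (150 higher, 129 lower) and 153 genes. Array weights gave 619 probe sets (348 higher, 271 lower), 289 with a fold of at least 1.5, and 319 genes. The 10 compared arrays alone gave 0 probe sets, with 3557 at an unadjusted p under 0.05 in limma, and the actin covariate gave 0, with 2440. The main fit had 4473 at that level. Leaving out 1 mouse gave between 0 and 521 probe sets, 0 to 300 higher, 0 to 268 lower, 0 to 263 with a fold of at least 1.5, and 0 to 275 genes; without mouse 2 or mouse 4 of 20 ppm there were 0 calls of either kind, and without mouse 5 of 10 ppm 4 probe sets and 0 genes. Other settings stayed within 1.5 times of 157. Centring gave 130 probe sets (72 higher and 58 lower) and a second quantile normalization 124 (69 and 55). An intensity-dependent prior gave 164, a robust prior 113 and leaving out mouse 1 of 5 ppm 201. Animal order within each group as a covariate gave 199. That order was a rank inside the group, so this fit could not adjust for the order between the groups. The mean of a gene's probe sets called 120 genes, 62 of them among the 81.

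The replicate block called 189 probe sets and 96 genes, of which 72 were among the 81. Residuals of same-numbered mice correlated at 0.283, -0.119, 0.00554, 0.0474 and 0.104, so the numbers were not taken as pairs.

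For the difference between the steps 10 to 20 and 1 to 5 ppm, array weights gave 67 calls against 0, and leaving out 1 mouse 0 to 137. For the difference between 20 to 40 and 5 to 10 ppm, with 7 calls, the second quantile normalization gave 2, brighter probe sets 0 and array weights 174. The replicate block gave 4, animal order within each group 12, the actin covariate 30, and leaving out 1 mouse 0 to 58. Of the genes called with 1 mouse left out, 72.6% to 100% were also called in that direction at 40 ppm against air.

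Small differences of genes that were not called changed sign. Array weights turned Adh1 to -0.0096 and Adh4 to -0.038, and the actin covariate turned Adh4 to -0.027, Aldh1a1 to -0.041 and Cdkn1a to 0.33. With 1 mouse left out the ranges were -0.037 to 0.068 for Adh1, -0.11 to 0.13 for Adh4, -0.0012 to 0.085 for Aldh1a1, -0.64 to 0.098 for Cdkn1a and -0.18 to 0.12 for Cyp3a11. For values per array they were -0.0074 to 0.012 for the median, -0.13 to 0.018 for GAPDH, -0.24 to 0.034 for poly-A controls and -0.037 to 0.045 for endothelium. They were -0.018 to 0.034 for T and NK cells, -0.10 to 0.015 for erythroid cells, -0.072 to 0.065 for lung and -0.076 to 0.046 for adipocytes. The cause of these changes was not tested.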

Other observations

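Other genes that passed the test were chosen here after their values were seen. They are single genes and were not tested as a group. Eci2, an enoyl-CoA isomerase, rose by 0.80, Pex11a, a peroxisomal membrane protein, by 0.75, Acot12, a cytosolic acetyl-CoA hydrolase, by 0.75, and Vnn3, a second pantetheinase, by 0.66. The groups overlapped in these 4 genes. Gpt, the alanine aminotransferase, rose from 11.48 to 11.92 without overlap, and Mgmt, which repairs alkylated guanine in DNA, from 6.39 to 6.87 with overlap.

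Tram1, which assists the translocation of new proteins, fell by 0.47 and Selenof, a selenoprotein of the endoplasmic reticulum, by 0.27, both without overlap, and Cnih1, a cargo receptor, by 0.37. Tram2, a relative of Tram1, rose by 0.78. Hsd17b12, an enzyme of very long chain fatty acid synthesis, fell by 0.50, and Msn, the actin-linking protein moesin, by 0.50. Rpsa, a ribosomal protein, fell from 11.94 to 11.58. Elovl3, a rhythmic and male-biased fatty acid elongase, differed by -1.42 and Usp2, a clock-driven deubiquitinase, by 1.25, and neither was called.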
